A study of Kryptolebias marmoratus with 5 samples.

Results

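The genes of the bone morphogenetic protein (BMP) and transforming growth factor beta (TGF-beta) pathways were examined in whole embryos of the mangrove killifish *Kryptolebias marmoratus* carrying the tail mutations *shorttail* (*stl*) and *balltail* (*btl*). They were found by symbol: every gene whose RefSeq symbol begins with one of a fixed set of names (*bmp*, *bmpr*, *bmper*, *chrd*, *nog*, *fst*, *grem*, *gdf*, *tgfb*, *acvr*, *inhb*, *smad*, *lft* and *tll1* among them) or equals *id1* to *id4*, *ved*, *szl* or *ndr2*. This gave 65 of the 22090 genes with a coding sequence in the annotation. Of these, 54 reached a mean of at least 2 read counts per 1000000 (CPM) over the 5 libraries, as 15362 genes did in all. In this annotation 34.9% of these 22090 genes carry only a locus number as symbol, so a pathway gene without a family symbol is not among the 65.

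The RNA-seq data comprise 5 libraries, 1 per group, each made from 20 to 25 pooled whole embryos raised at 26°C to stage (St.) 17, with some at St. 16 or 18. These are the values of the sample labels. The study's text also places the sorting of mutants at a later stage and gives only the lower pool size. The *stl* library holds homozygous mutants of the R109 line, which have an amino acid substitution in *noto*, a homeobox gene of the notochord. The *stl*-sibling library holds embryos of normal shape from the same line. The *btl* library holds homozygous mutants of the R228 line, with a substitution in *msgn1*, a gene of the presomitic mesoderm that forms somite muscle. The *btl*-sibling library holds normal embryos of that line, and the WT library holds the parental strain *Hon9*, from which both lines were made by chemical mutagenesis with ENU. Mutants were sorted from siblings by shape, and the genotypes of single sibling embryos are not given in the sources used here. By the paper's screen, both sibling pools held reads of the mutant as well as the wild-type allele, so they were not free of the mutation. The fish fertilise themselves and are highly inbred, so each library stands for 1 inbred line, and without a second pool of any group no test between groups was possible. A gene was therefore counted as higher or lower at a 2-fold difference of CPM. The 95% intervals given are exact intervals of the ratio of reads, which cover counting error only and not the spread between pools of embryos. Differences among the 3 normal libraries, which are also differences between lines, are given beside the results.

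BMP and TGF-beta family ligands are secreted dimers that bring together type I and type II receptor kinases on the cell surface. The type I receptor then phosphorylates receptor Smads, Smad1, Smad5 and Smad9 for BMPs and Smad2 and Smad3 for TGF-beta, activin and Nodal, which enter the nucleus with Smad4. Chordin, Noggin and Follistatin hold ligands away from receptors, proteases of the Tolloid family cut Chordin and free the ligand, and Sizzled blocks these proteases. In fish embryos BMP signalling is high ventrally and low near the dorsal organizer, the source of Chordin that becomes the notochord. The tail bud forms from the ventral and dorsal ends of this gradient together, and Nodal ligands and their Lefty antagonists act in mesoderm and midline formation.

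The libraries held 9147625 estimated reads in *btl* and 11487661 to 12220249 in the other 4. The mutated genes were transcribed in every library. *noto* had 3.71 CPM in *stl* against 7.56 CPM in *stl*-sibling and 16.0 CPM in *btl* against 7.15 CPM in *btl*-sibling. *msgn1* had 10.8 CPM in *stl* against 7.31 CPM in *stl*-sibling and 259 CPM in *btl* against 12.4 CPM in *btl*-sibling. A substitution need not alter the level of a transcript, so these levels do not check the genotypes. The summed level of 12 notochord markers was 157 CPM in *stl* against 1313 CPM in *stl*-sibling, and 356 CPM in *btl* against 1146 CPM in *btl*-sibling. For 12 somite muscle markers it was 571 CPM in *stl* against 1288 CPM in *stl*-sibling, and 288 CPM in *btl* against 892 CPM in *btl*-sibling. Of the 11 notochord markers kept, 9 were 2-fold lower in *stl* and 8 in *btl*, where 2 were 2-fold higher. Of the 12 muscle markers 9 were lower in *stl* and 10 in *btl*. Over all genes 0.996% were lower in *stl* and 3.27% in *btl*. Over WT, 10 notochord markers were 2-fold lower in *stl* and 7 in *btl*, where 1 was higher. Of the muscle markers 0 were lower in *stl* over WT and 11 in *btl*, against 1.52% and 2.56% of all genes. The *stl*-sibling library was itself above WT for 12 of 12 muscle markers, with a median of 0.79. The WT library had 913 CPM of the notochord markers and 740 CPM of the muscle markers. Epidermal markers summed to 9494 CPM in *stl* against 10016 CPM in *stl*-sibling, and to 5160 CPM in *btl* against 8275 CPM in *btl*-sibling. Among these and the markers of tail bud, nervous tissue, blood and heart, *matn1* of the notochord list and *eve1* of the tail bud list were at 0 in at least 1 library. The fold change of a gene also depended on the length of its coding sequence, most in *btl* over *btl*-sibling. There the median log2 fold change was 0.62 for the shortest 10% of genes (114 to 594 nucleotides) and -0.35 for the longest 10% (3842 to 88038 nucleotides). In *btl* over WT these medians were 0.39 and -0.11. They ran the other way in *btl*-sibling over WT (-0.23 and 0.25) and in *stl* over WT (-0.22 and 0.24). The trend was thus not confined to the *btl* library. Values with this trend removed, by subtracting the median of genes of like length, are given for the pathway genes where they change a call. With it removed, *noto* in *btl* stood at 0.87 over *btl*-sibling, short of 2-fold, and 11 of 12 muscle markers were past 2-fold.

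In *stl*, 1 of the 54 pathway genes was at least 2-fold lower than in *stl*-sibling, the Nodal antagonist *lft1*, and none was 2-fold higher. Over all genes 0.996% were 2-fold lower and 0.215% higher. In *btl*, 5 of 54 were at least 2-fold lower than in *btl*-sibling and 3 were higher, where 3.27% of all genes were lower and 4.33% higher. The 5 lower genes were *chrd*, *fsta*, *bmpr1bb*, *tgfbr3* and *bmp3*, which encode a pair of antagonists, a BMP type I receptor, a co-receptor and a ligand. The 3 higher genes were *fstl5*, *szl* and *ved*. Of these, *szl* reached the minimum of 2 CPM only through its level in *btl*, so its place in this count depends on that library. The median log2 fold change of the 54 genes was -0.03 in *stl*, with 31 of 54 below 0, against -0.00 and 51.1% below 0 for all genes. In *btl* it was -0.22, with 36 of 54 below 0, against -0.02 and 51.6% below 0 for all genes. With the length trend removed the median of the 54 genes in *btl* was -0.21. In a pool of whole embryos fewer cells of a type and less RNA per cell cannot be told apart, here and in all that follows.

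**Figure D1:**
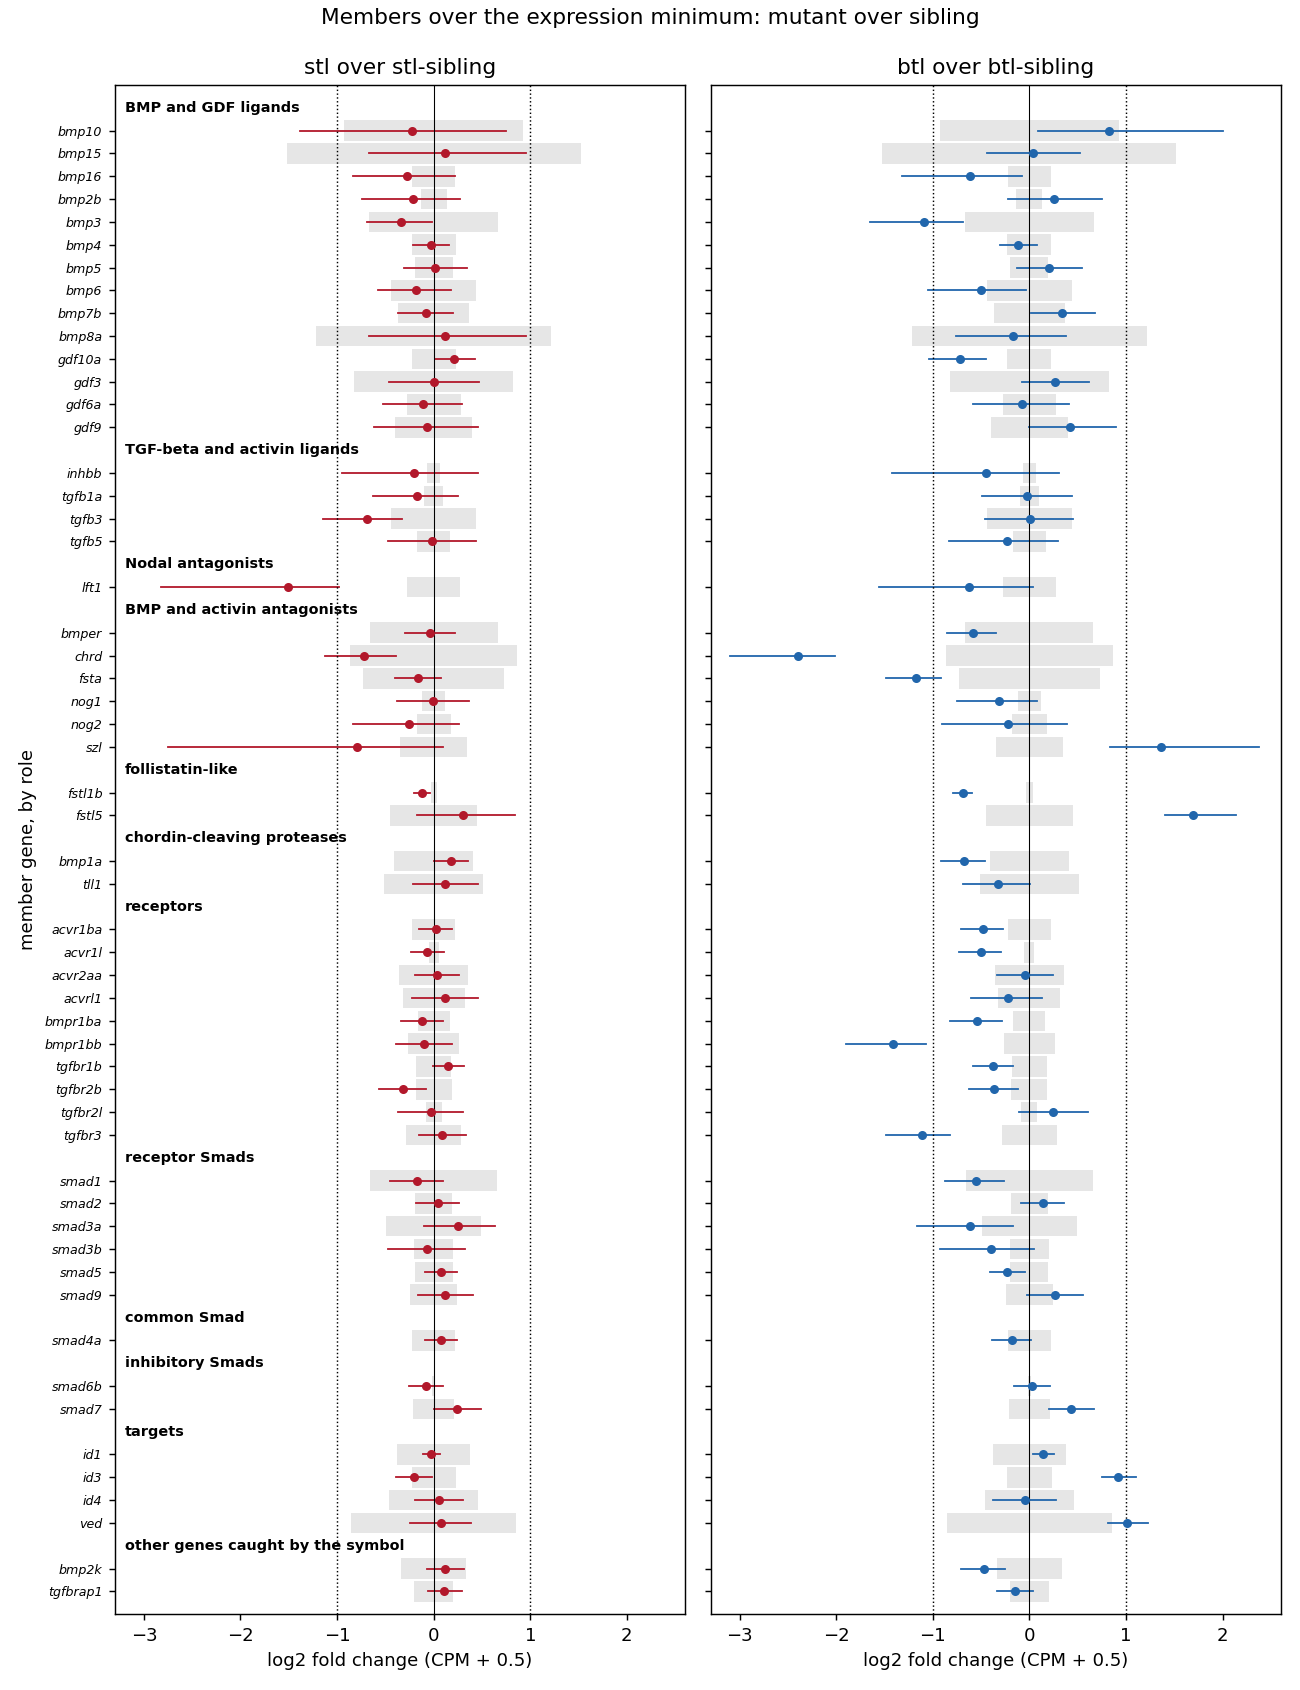
Log2 fold change of CPM + 0.5 (x axis) of the 54 pathway genes kept (y axis, by role), *stl* over *stl*-sibling on the left and *btl* over *btl*-sibling on the right. Points are single library pairs, and lines are the exact 95% intervals for counting error, of the ratio without the added 0.5. Grey bars span the largest difference of that gene among the 3 normal libraries in either direction, and dotted lines mark 2-fold. Only *lft1* lies past 2-fold in *stl*, while 8 genes do in *btl*, with *chrd* at -2.39 the farthest.

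With WT in place of the sibling, *lft1* and *bmp10* were 2-fold lower in *stl* and no pathway gene was 2-fold higher, where 1.52% of all genes were lower and 1.2% higher. In *btl*, *chrd* and *bmpr1bb* were 2-fold lower than in WT, and *fstl5*, *szl*, *ved* and *bmp15* were higher, where 2.56% of all genes were lower and 1.8% higher. Both mutants share the WT library in these comparisons. Among the normal libraries, none of the 54 genes differed 2-fold between *stl*-sibling and WT (1.71% of all genes did, in either direction), *bmp15* did between *btl*-sibling and WT (1.36%), and *bmp15* and *bmp8a* did between *stl*-sibling and *btl*-sibling (2.12%).

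The antagonists held the largest difference of the module. *chrd* encodes Chordin, the BMP antagonist of the dorsal organizer and, in zebrafish, also of the axial tail bud. It lies on linkage group 2 of assembly ASM164957v2, at positions 32462643 to 32493757. Its level was 8.18 CPM in *stl* against 13.8 CPM in *stl*-sibling, 3.94 CPM in *btl* against 22.9 CPM in *btl*-sibling, and 12.4 CPM in WT. Both mutants thus had less *chrd* than each normal library, and *btl* the least. The log2 fold change over the sibling was -2.39 in *btl* (33 against 294 reads, 95% interval -3.10 to -2.01), the 30th lowest of all genes kept, and -0.72 in *stl* (97 against 168 reads, -1.13 to -0.39). The siblings of *btl* had themselves 0.86 more than WT on the log2 scale, so that *btl* was at -1.53 against WT (95% interval -2.24 to -1.09) and *stl* at -0.57. The difference of *stl* therefore lay within the spread among normal libraries, and that of *btl* lay outside it against either library. The lower *chrd* stood beside a lower sum of notochord markers in both mutants, although this sum was lower by more in *stl* than in *btl*, the reverse of *chrd*. Of the 11 notochord markers kept, 2 were 2-fold higher in *btl*, *noto* among them. The part of notochord tissue in the *chrd* levels was not tested.

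The reads of *chrd* were divided by the authors' quantification between a coding sequence of 2877 nucleotides and one of 2868. The longer had no reads in *stl* or *btl*, against 56.4 in *stl*-sibling, 97.4 in *btl*-sibling and 69.8 in WT. The shorter had 97.0 reads in *stl* and 33.0 in *btl*, against 112 in *stl*-sibling, 197 in *btl*-sibling and 73.2 in WT. The models differ by only 9 nucleotides in length, and reads that fit both are divided by estimate, so this division is uncertain and the sum over the gene was used throughout.

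*fsta* encodes Follistatin, which binds activins and some BMPs. It had 23.7 CPM in *stl* against 26.5 CPM in *stl*-sibling, 15.8 CPM in *btl* against 36.1 CPM in *btl*-sibling, and 21.6 CPM in WT. The *btl* library was the lowest of the 5 and its siblings the highest. The log2 fold change was -1.17 in *btl* over *btl*-sibling (132 against 465 reads, 95% interval -1.49 to -0.91), but -0.44 over WT, and *btl*-sibling was 0.73 above WT. In *stl* it was -0.16. The Noggin genes, which encode antagonists made by the notochord among other tissues, varied less. *nog1* had 10.3 CPM in *stl* and in *stl*-sibling, 8.97 CPM in *btl*, 11.3 CPM in *btl*-sibling and 10.5 CPM in WT. On the log2 scale it differed by -0.00 in *stl* and by -0.31 in *btl*. *nog2* was -0.26 in *stl* and -0.22 in *btl*, with 33 to 65 reads a library. *bmper*, the fish relative of the BMP-binding fly protein Crossveinless 2, was -0.04 in *stl* and -0.59 in *btl*. Over WT it was -0.17 in *btl* (95% interval -0.45 to 0.10), and the normal libraries differed by up to 0.66.

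*szl* encodes Sizzled, a secreted inhibitor of the Chordin-cleaving proteases that in zebrafish is itself switched on by BMP signalling on the ventral side. It had 0.59 CPM in *stl* against 1.40 CPM in *stl*-sibling, 5.38 CPM in *btl* against 1.79 CPM in *btl*-sibling, and 1.30 CPM in WT. The *stl* library was thus the lowest and the *btl* library the highest of all 5. The mean of *szl*, 2.09 CPM, passed the minimum of 2 CPM only through *btl*, as every other library was below 2 CPM. Its place among the antagonists kept therefore depends on its high level in *btl*. The log2 fold change was 1.36 in *btl* (45 against 23 reads, 95% interval 0.83 to 2.38) and 1.71 over WT, beyond the 0.35 by which normal libraries differed at most. In *stl* it was -0.80 from 7 against 17 reads, with an interval of -2.75 to 0.10 that reaches past 0. The 6 antagonists kept had a median of -0.21 in *stl*, with 6 of 6 below 0 (*nog1* by less than 0.01) where 51.1% of all genes were, and 5 of 6 with the length trend removed. Over WT 5 of 6 were below 0 in *stl*, where 51.9% of all genes were, and 3 of 6 with the trend removed. In *btl* the median was -0.45, with 5 of 6 below 0 where 51.6% of all genes were, *szl* being the exception. Over WT the median in *btl* was -0.23, again with 5 of 6 below 0, where 49.6% of all genes were. The *btl*-sibling library itself had a median of 0.38 over WT for these antagonists. The other 4 antagonists, *chrdl2*, *grem1a*, *grem1b* and *grem2a*, had at most 9 reads in a library and were not kept.

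**Figure D2:**
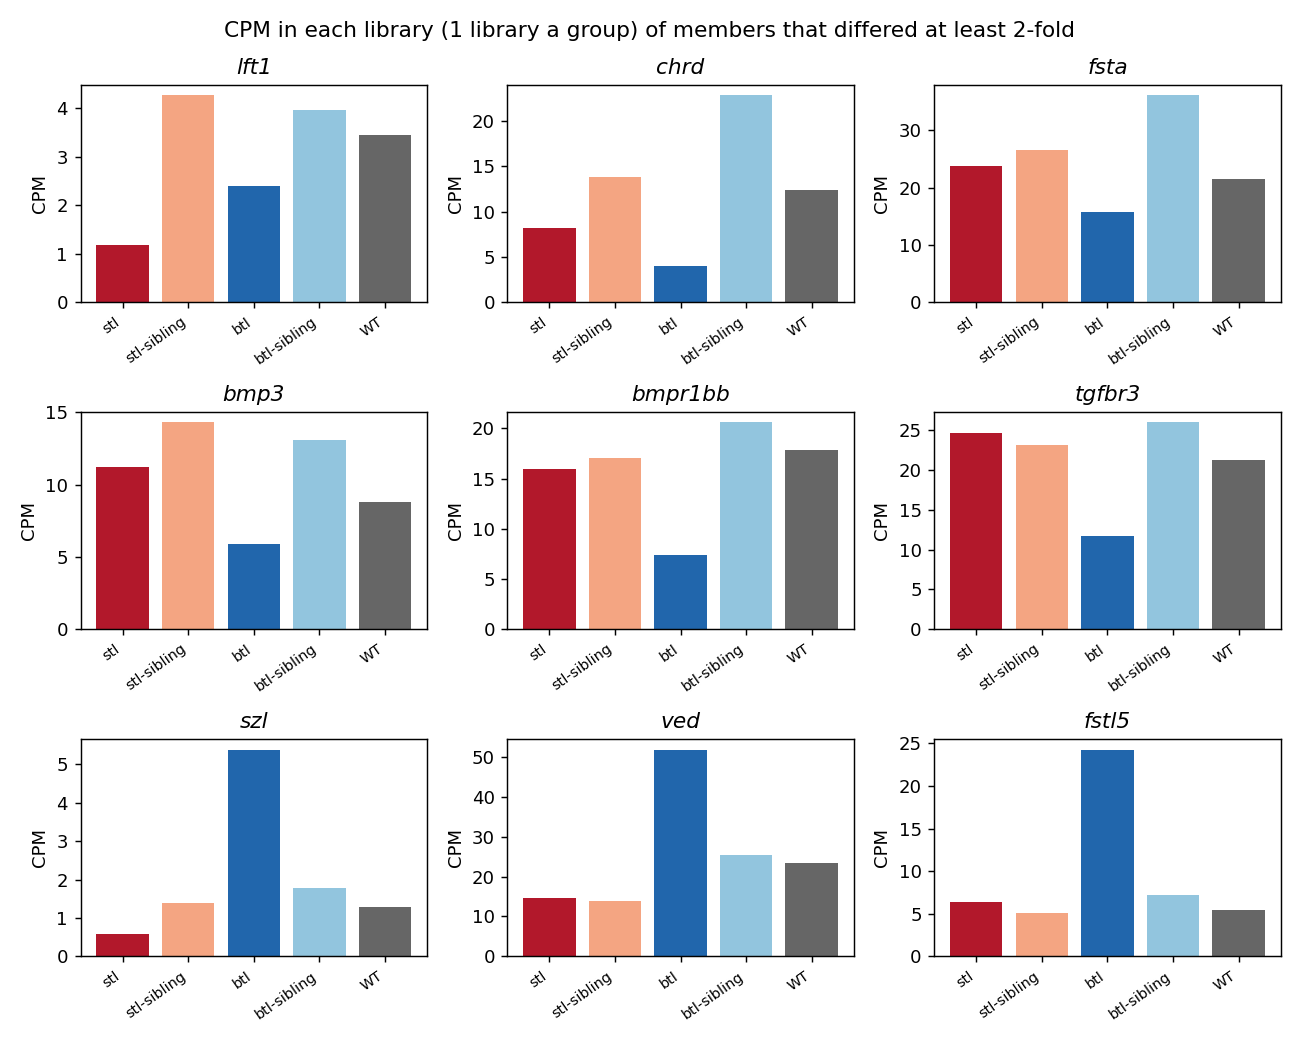
CPM (y axis, starting at 0) of the 9 pathway genes that differed at least 2-fold between a mutant and its sibling, 1 bar a library and 1 library a group, so without error bars. *btl* had the least *chrd*, *fsta*, *bmpr1bb*, *tgfbr3* and *bmp3* of the 5 libraries and the most *szl*, *ved* and *fstl5*, while *stl* had the least *lft1*.

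The ligand genes *bmp4*, *bmp2b* and *bmp7b*, by contrast, stayed within 2-fold of their siblings' levels in both mutants. *bmp7a*, also on the list of zebrafish patterning genes, was not found by symbol, so these ligands were not covered in full. *bmp4*, the most abundant ligand at a mean of 25.7 transcripts per 1000000 (TPM, a level per length of coding sequence), had 39.5 CPM in *stl* against 40.2 CPM in *stl*-sibling, 43.5 CPM in *btl* against 47.1 CPM in *btl*-sibling, and 43.1 CPM in WT. Its log2 fold changes were -0.03 in *stl* (95% interval -0.21 to 0.16) and -0.11 in *btl* (-0.31 to 0.08), so counting error alone leaves no room for a 2-fold difference. *bmp2b* had 5.31 CPM in *stl* against 6.24 CPM in *stl*-sibling, 7.81 CPM in *btl* against 6.45 CPM in *btl*-sibling, and 6.91 CPM in WT. *bmp7b* had 16.4 CPM in *stl* against 17.4 CPM in *stl*-sibling, 17.3 CPM in *btl* against 13.6 CPM in *btl*-sibling, and 17.7 CPM in WT. Log2 fold changes of *bmp2b* were -0.21 in *stl* and 0.26 in *btl*, and those of *bmp7b* -0.08 and 0.34.

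Set against *chrd* within the same library, which removes the scaling between libraries, the ligands stood higher in *btl*. *chrd* was the pathway gene farthest from its sibling's level in *btl*, so even a gene of steady level is higher by this ratio. The ratio of the antagonist *nog1*, itself at -0.31 in *btl*, was 2.27 in *btl* against 0.493 in *btl*-sibling. The ligand ratios therefore mainly restate the lower *chrd*. There were 11.0 reads of *bmp4* per read of *chrd* in *btl* against 2.06 in *btl*-sibling, and 4.82 in *stl* against 2.91 in *stl*-sibling, with 3.49 in WT. For *bmp2b* the ratio was 1.98 in *btl* against 0.282 in *btl*-sibling, 0.649 in *stl* against 0.452 in *stl*-sibling, and 0.559 in WT. For *szl* it was 1.36 in *btl*, between 0.0782 and 0.105 in the 3 normal libraries, and 0.0722 in *stl*. Each of these ratios carries the same 33 reads of *chrd* in *btl*, so they are not separate observations of a shift, and ratios of genes of unlike length are not ratios of molecules. The ratios also keep the length trend. With it removed, the log2 fold changes of *btl* over *btl*-sibling were -2.18 for *chrd*, -0.12 for *bmp4*, 0.24 for *bmp2b* and 1.12 for *szl*.

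**Figure D3:**
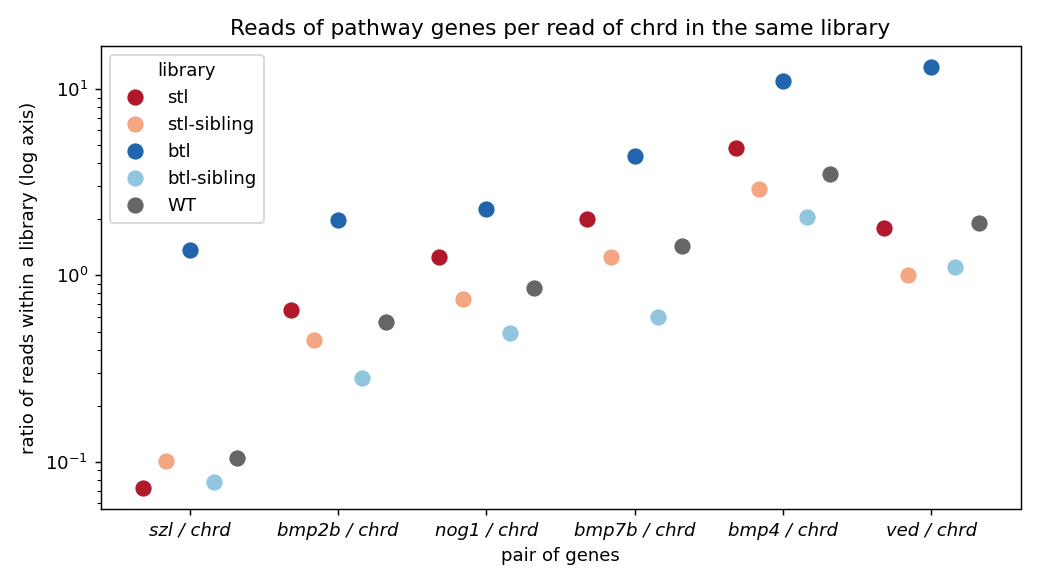
Reads of *szl*, *bmp2b*, *nog1*, *bmp7b*, *bmp4* and *ved* per read of *chrd* in the same library (log axis), 1 point a library. In each of the 6 pairs the *btl* library is the highest, for example 13.1 reads of *ved* per read of *chrd* against 1.11 in *btl*-sibling. All ratios of a library share its *chrd* reads, and none has the length trend removed. Because *chrd* was the gene farthest below its sibling's level in *btl*, a gene of steady level is also higher in *btl* here.

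Among the 14 BMP and GDF ligands kept, *bmp3* alone was past 2-fold against a sibling. *bmp3* encodes a divergent ligand that counteracts other BMPs in mammals. It had 11.2 CPM in *stl* against 14.3 CPM in *stl*-sibling, 5.86 CPM in *btl* against 13.1 CPM in *btl*-sibling, and 8.81 CPM in WT. WT lay between *btl* and the other libraries: the log2 fold change in *btl* was -1.09 over *btl*-sibling (49 against 168 reads, 95% interval -1.65 to -0.69) and -0.55 over WT, while the normal libraries differed by up to 0.67. *gdf10a*, a close relative of *bmp3*, was 0.21 in *stl* and -0.72 in *btl*. *gdf3*, the fish Vg1 ligand that pairs with Nodal, was 0.00 in *stl* and 0.26 in *btl*. It differed more between lines, with 6.75 CPM in *stl*, 6.74 CPM in *stl*-sibling, 14.8 CPM in *btl*, 12.3 CPM in *btl*-sibling and 9.59 CPM in WT. The siblings were 0.82 apart on the log2 scale, and over WT *stl* was at -0.48 and *btl* at 0.60. The 14 ligands had a median of -0.08 in *stl* (range -0.34 to 0.21) and -0.02 in *btl* (-1.09 to 0.83). The highest in *btl* was *bmp10*, a heart ligand, at 0.83 from 24 against 18 reads, beside summed heart markers of 340 CPM in *btl* against 196 CPM in *btl*-sibling. The part of heart tissue in the *bmp10* level was not tested. *gdf2* and *gdf5* had at most 3 reads in a library.

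Of the TGF-beta and activin ligands, 4 of 6 were kept and none was past 2-fold. *tgfb3*, the most abundant of them, had 6.83 CPM in *stl* against 11.3 CPM in *stl*-sibling, 8.25 CPM in *btl* against 8.24 CPM in *btl*-sibling, and 8.72 CPM in WT. The *stl* library was the lowest and its siblings the highest, and on the log2 scale *stl* was at -0.69 over *stl*-sibling (81 against 138 reads, 95% interval -1.14 to -0.32) but -0.33 over WT, and *btl* at 0.00. *tgfb1a*, *tgfb5* and *inhbb* lay between -0.21 and -0.01 in *stl* and between -0.44 and -0.02 in *btl*. The activin genes *inhbaa* and *inhbab* and the Nodal ligand *ndr2* had at most 3 reads in a library.

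The Nodal antagonist *lft1*, which is transcribed in the zebrafish midline during somite stages, was the pathway gene with the largest difference in *stl*. It lies on linkage group 19 at 19708985 to 19712001. It had 1.18 CPM in *stl* against 4.27 CPM in *stl*-sibling, 2.39 CPM in *btl* against 3.96 CPM in *btl*-sibling, and 3.45 CPM in WT. The 3 normal libraries lay within 0.27 of each other on the log2 scale, and both mutants below them. The log2 fold change in *stl* was -1.51 over *stl*-sibling (14 against 52 reads, 95% interval -2.82 to -0.98), the 50th lowest of all genes kept, and -1.23 over WT. In *btl* it was -0.63 from 20 against 51 reads, with an interval of -1.55 to 0.04. The summed notochord markers, given above with the exceptions in *btl*, were lower in both mutants and more so in *stl*. The part of notochord tissue in the *lft1* level was not tested. *tdgf1*, which encodes the Nodal co-receptor and is not among the 65 genes, had 21 reads in *stl* against 42.1 in *stl*-sibling and 63 in each of *btl* and *btl*-sibling. It differed by -0.80 on the log2 scale in *stl* (95% interval -1.79 to -0.17) and 0.57 in *btl*.

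The receptors, which carry the signal into the cell, were all within 2-fold in *stl* and mostly lower in *btl*. All 10 were kept. In *stl* they lay between -0.31 and 0.15, with a median of -0.00 and 5 of 10 below 0, where 51.1% of all genes were. In *btl* 9 of 10 were below 0 with a median of -0.43, against 51.6% below 0 and a median of -0.02 for all genes. Over WT the median was -0.33 in *btl*, again with 9 of 10 below 0, where 49.6% of all genes were.

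*bmpr1bb*, a BMP type I receptor gene on linkage group 14, was the lowest of them in *btl*. It had 16.0 CPM in *stl* against 17.1 CPM in *stl*-sibling, 7.41 CPM in *btl* against 20.6 CPM in *btl*-sibling, and 17.9 CPM in WT. The other 4 libraries lay close together and *btl* apart. The log2 fold change in *btl* was -1.42 over *btl*-sibling (62 against 265 reads, 95% interval -1.90 to -1.07) and -1.22 over WT, while normal libraries differed by at most 0.26. Its paralogue *bmpr1ba* was at -0.54 in *btl*, so that there were 0.367 reads of *bmpr1bb* per read of *bmpr1ba* in *btl* and 0.549 to 0.697 in the other libraries. Reads that fit both paralogues would be divided by estimate.

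*tgfbr3* encodes betaglycan, a co-receptor that presents TGF-beta to its receptors. It had 24.7 CPM in *stl* against 23.2 CPM in *stl*-sibling, 11.7 CPM in *btl* against 26.0 CPM in *btl*-sibling, and 21.2 CPM in WT. Again *btl* alone stood low: -1.12 over *btl*-sibling (98 against 334 reads, 95% interval -1.49 to -0.82) and -0.83 over WT. Its coding sequence of 2478 nucleotides is long, and with the length trend removed the value over *btl*-sibling was -0.93, short of 2-fold. The estimated reads of *tgfbr3* also shifted between a pair of coding sequences, with 20.3 reads on the longer in *btl* against 321 in *btl*-sibling and 77.7 on the shorter against 13.1, a division as uncertain as that of *chrd*. The most abundant receptor, the TGF-beta type I receptor gene *tgfbr1b*, was 0.15 in *stl* and -0.37 in *btl*, and *tgfbr2l* at 0.24 was the 1 receptor gene above 0 in *btl*.

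The Smads, which pass the signal on to the nucleus, stayed within 2-fold in both mutants. The 6 receptor Smads had a median of 0.06 in *stl* (range -0.17 to 0.25) and -0.31 in *btl* (-0.61 to 0.26). Over WT, however, their median in *btl* was 0.04, with 3 of 6 below 0 where 49.6% of all genes were. All 6 were above 0 in *btl*-sibling over WT, with a median of 0.22, so the lower median in *btl* was seen against its sibling only. *smad5*, the most abundant and a BMP effector, had 53.5 CPM in *stl* against 50.7 CPM in *stl*-sibling, 48.8 CPM in *btl* against 57.2 CPM in *btl*-sibling, and 49.9 CPM in WT, or 0.08 in *stl* and -0.23 in *btl*. *smad4a*, the common partner, was 0.07 in *stl* and -0.18 in *btl*. The inhibitory Smads are feedback genes that these pathways themselves switch on. *smad6b* was the steadiest of them, at 44.2 CPM in *stl*, 46.7 CPM in *stl*-sibling, 48.2 CPM in *btl*, 47.2 CPM in *btl*-sibling and 46.9 CPM in WT. *smad7* had 25.1 CPM in *stl* against 21.1 CPM in *stl*-sibling, 33.4 CPM in *btl* against 24.6 CPM in *btl*-sibling, and 22.4 CPM in WT. Its log2 fold change was 0.24 in *stl* and 0.43 in *btl* (95% interval 0.20 to 0.67), where normal libraries differed by up to 0.21.

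The target genes kept were *id1*, *id3*, *id4* and *ved*. *id1*, *id3* and *id4* encode inhibitors of helix-loop-helix factors that BMP signalling switches on in many cells, and *ved* encodes a ventral homeobox repressor of organizer genes known from zebrafish. *ved* had 14.6 CPM in *stl* against 13.9 CPM in *stl*-sibling, 51.8 CPM in *btl* against 25.5 CPM in *btl*-sibling, and 23.5 CPM in WT. It separated the lines as well as the mutants: both libraries of the *stl* line were low, with *stl*-sibling at -0.74 against WT and -0.85 against *btl*-sibling. Within lines the log2 fold change was 0.07 in *stl* and 1.01 in *btl* (433 against 328 reads, 95% interval 0.81 to 1.23), and *btl* was 1.12 over WT. With the length trend removed the value over *btl*-sibling was 0.77, short of 2-fold.

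*id1* was the most abundant gene of the module by TPM, at a mean of 453, ahead of *fstl1b* at 187 and *id3* at 172. Its CPM were 170 in *stl* against 173 in *stl*-sibling, 147 in *btl* against 133 in *btl*-sibling, and 150 in WT, so it stayed within 0.38 on the log2 scale among all normal libraries and was -0.02 in *stl* and 0.15 in *btl*. *id3* had 37.5 CPM in *stl* against 43.3 CPM in *stl*-sibling, 70.2 CPM in *btl* against 36.8 CPM in *btl*-sibling, and 42.8 CPM in WT. At 0.92 in *btl* (587 against 474 reads, 95% interval 0.75 to 1.11) it was close to 2-fold, and -0.20 in *stl*. *id4* was 0.05 in *stl* and -0.05 in *btl*. The coding sequences of *id1*, *id3* and *id4* are among the shortest 10% of genes, whose median was raised in *btl*, and with the length trend removed they stood at -0.64, 0.13 and -0.52. The median of the 4 targets in *btl* was thus 0.53 as measured and -0.19 with the trend removed, and its direction rests on that choice. The ratio of *id1* to *id3*, a pair of similar length, was 2.10 reads in *btl* and 3.50 to 4.52 in the other 4 libraries.

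**Figure D4:**
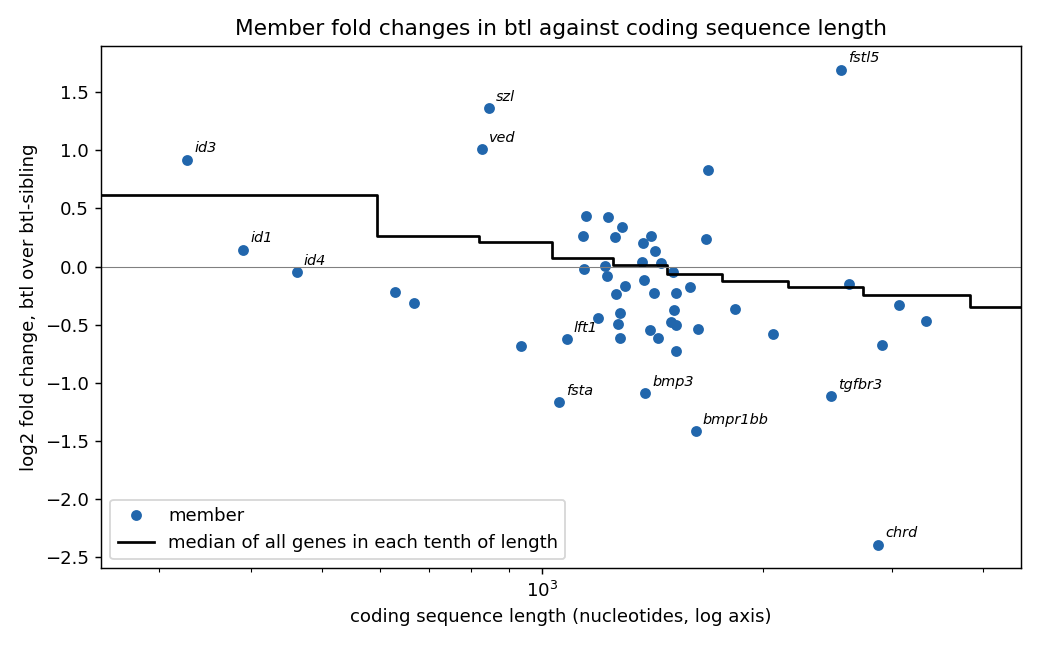
Log2 fold change in *btl* over *btl*-sibling (y axis) of the 54 pathway genes kept (points) against coding sequence length in nucleotides (log axis), with the median of all genes kept in each 10% bin of length (stepped line). *id1* and *id4* lie below the line for their length and *id3* close to it, whereas *chrd* at -2.39 and *fstl5* at 1.69 lie far from it on either side.

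*fstl5* and *fstl1b* belong by name to the follistatin-like genes, secreted proteins that share a domain with Follistatin. *fstl5* had 6.41 CPM in *stl* against 5.09 CPM in *stl*-sibling, 24.3 CPM in *btl* against 7.15 CPM in *btl*-sibling, and 5.44 CPM in WT. Every library except *btl* lay between 5.09 and 7.15 CPM. The log2 fold change in *btl* was 1.69 over *btl*-sibling (203 against 92 reads, 95% interval 1.40 to 2.13), the 40th highest of all genes kept, and 2.06 over WT. It was larger, 1.88, with the length trend removed. *fstl1b* had the highest CPM of the 65 genes in every library except *btl*, where *id1* did, with 197 CPM in *stl* against 214 CPM in *stl*-sibling, 136 CPM in *btl* against 219 CPM in *btl*-sibling, and 218 CPM in WT. The 3 normal libraries agreed within 0.03 on the log2 scale, while *btl* was at -0.69 against *btl*-sibling (95% interval -0.79 to -0.59) and *stl* at -0.12 against *stl*-sibling. *fstl4* had 6 to 21 reads a library and *fstl3* at most 1.

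The proteases that cut Chordin differed by less than 2-fold. *bmp1a*, which despite its symbol encodes a metalloprotease and no ligand, had 49.6 CPM in *stl* against 43.8 CPM in *stl*-sibling, 27.3 CPM in *btl* against 43.8 CPM in *btl*-sibling, and 32.9 CPM in WT. It was 0.18 in *stl* and -0.68 in *btl*, and both siblings were 0.41 above WT. *tll1* was 0.12 in *stl* and -0.33 in *btl*. The symbol rule also took in *bmp2k*, a kinase gene, and *tgfbrap1*, which encodes a receptor-associated protein. These were 0.12 and 0.11 in *stl* and -0.47 and -0.15 in *btl*.

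The ligand genes *bmp15* and *bmp8a* separated the lines and not the mutants from their siblings. *bmp15*, known as an oocyte growth factor, had 7.53 CPM in *btl* and 7.31 CPM in *btl*-sibling, against 2.45 CPM in *stl*, 2.22 CPM in *stl*-sibling and 2.25 CPM in WT. Mutant and sibling of a line were thus close (differing by 0.12 in *stl* and 0.04 in *btl* on the log2 scale), while *btl*-sibling was 1.51 above WT. *bmp8a* had 2.45 CPM in *stl* and 2.22 CPM in *stl*-sibling, against 5.14 CPM in *btl*, 5.83 CPM in *btl*-sibling and 4.92 CPM in WT. *bmp10* followed neither line nor mutation: it had 2.87 CPM in *btl* and 3.11 CPM in WT, against 1.27 CPM in *stl*, 1.56 CPM in *stl*-sibling and 1.40 CPM in *btl*-sibling. It was 2-fold lower in *stl* than in WT (15 against 36 reads), but both siblings were also lower than WT, at -0.81 for *stl*-sibling and -0.93 for *btl*-sibling.

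Outside the 65 genes, a written list of other pathway genes (co-receptors, latent TGF-beta binding proteins, ubiquitin ligases, transcriptional partners, and BMP and TGF-beta targets) matched 48 genes, of which 42 were kept. In *stl* none was past 2-fold against *stl*-sibling, where 1.21% of all genes were (27 of 42 below 0 against 51.1% of all genes, median -0.05). In *btl* 1 was lower and none was higher than in *btl*-sibling, or 2.38% of the list against 7.60% of all genes (26 of 42 below 0 against 51.6% of all genes, median -0.28). With the length trend removed 2 were lower, as *nbl1*, a BMP antagonist gene with 12 against 32 reads, stood at -1.10 in place of -0.63. Over WT, *tdgf1* was 2-fold lower in *stl* (-1.21), and in *btl* *ccn2a* was lower (-1.02) and *cdx4* higher (1.20). These were 2.38% of the list against 2.73% of all genes in *stl*, and 4.76% against 4.37% in *btl*. The number of calls over WT was thus near that of all genes. The gene lower in *btl* than in *btl*-sibling was *ccn2a*, a connective tissue growth factor gene that TGF-beta induces. It had 8.18 CPM in *stl* against 12.7 CPM in *stl*-sibling, 5.14 CPM in *btl* against 11.4 CPM in *btl*-sibling, and 11.0 CPM in WT. Its log2 fold change in *btl* was -1.08 (43 against 147 reads, 95% interval -1.68 to -0.65). *cdx4*, a caudal gene of the tail bud downstream of BMP and other signals in zebrafish, was the highest of the list in *btl*, with 79.5 CPM in *btl* against 42.8 CPM in *btl*-sibling, and 34.2 CPM in WT. This was 0.88 higher on the log2 scale, and *cdx4* was -0.05 in *stl*. *bambia*, a feedback pseudoreceptor gene, was 0.23 in *stl* and 0.14 in *btl*. *eve1*, a ventral and tail bud homeobox gene that responds to BMP in zebrafish, was below the expression minimum and is named after its values were seen: it had 22 reads in *btl* against 3 in *btl*-sibling, 0 in *stl* against 3 in *stl*-sibling, and 1 in WT. The summed tail bud markers, of which *msgn1* itself gave 259 CPM in *btl*, were 331 CPM in *btl* against 75.4 CPM in *btl*-sibling, and 57.6 CPM in *stl* against 54.2 CPM in *stl*-sibling. Without *msgn1* they were 72.1 CPM in *btl* against 63.0 CPM in *btl*-sibling and 46.6 CPM in WT. Of the 5 tail bud markers kept, *msgn1* among them, 4 were above 0 in *btl* over *btl*-sibling. Only *tbx6* was below 0, and it was 2-fold lower at -1.62. Over WT, *msgn1* and *tbx16* were 2-fold higher in *btl* and *tbx6* was 2-fold lower, where 1.8% of all genes were higher and 2.56% lower. The part of tail bud and epidermal tissue in the higher *ved*, *szl*, *cdx4* and *eve1* of *btl* was not tested.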

How the data were processed

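Paired end reads of 5 libraries were trimmed by the authors, and Salmon 1.5.0 was run on the annotated coding sequences of assembly ASM164957v2. For every coding sequence the authors deposited estimated counts of reads and TPM. Their tables of NOISeq comparisons, which hold fold ratios and probabilities, and the joined count and RPKM tables were not used here.

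Of 37181 coding sequences, 37146 could be joined to a RefSeq gene by protein accession, and the estimated counts of each gene's sequences were added. CPM used the TMM factors of edgeR 4.0.16 (R 4.3.3), and log2 fold changes were taken of CPM + 0.5 for genes whose mean reached 2 CPM. Further steps used Python 3.11.15 with pandas 2.3.3 and scipy 1.17.1. Estimated reads totalled 11487661 (*stl*), 11849426 (*stl*-sibling), 9147625 (*btl*), 12220249 (*btl*-sibling) and 11817725 (WT). Intervals are Clopper-Pearson and take reads as independent molecules. They belong to the ratio without the added 0.5 CPM. The log2 fold changes include it, so they are smaller in size than that ratio and sit off the centre of the interval, most at few reads. The calculation was tested on simulated counts. TPM served to compare genes within libraries and, between libraries, as an alternative unit.

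The genes, role groups, marker lists and list of other pathway genes were chosen with earlier results of these data known. Of that last list of 65 symbols, 48 matched. Named with values were genes past 2-fold against a sibling, 29 symbols of dorsoventral and tail patterning in zebrafish (18 matched), and the most abundant gene of each role. Genes named beyond these were chosen after their values were seen. *bmp7a*, *nog3*, *fstb*, *gdf11*, *ndr1*, *lft2*, *id2a*, *id2b*, *vox*, *vent* and *smad6a* were not analysed here. Scaling, unit, pseudocount, filter, reference library, length trend and threshold were varied. No sequences of these genes are shown.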

Additional observations from a re-analysis of the deposited data

Results flagged for a closer look

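*szl* differed in opposite directions in the mutants. Its log2 fold change was -0.80 in *stl* over *stl*-sibling and 1.36 in *btl* over *btl*-sibling, and -0.72 in *stl* and 1.71 in *btl* over WT, which both share. The values in *stl* rest on 7 reads, and *szl* passed the expression minimum only through its level in *btl*. With 1 library per group, whether *stl* and *btl* differ in *szl* beyond the spread of pools was not tested.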

How the results depend on the processing

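No paired analysis was possible because each group has 1 library and the result comes from no test. For the same reason no library could be left out. The 1 gene past 2-fold in *stl* (1.21% of all genes) became 2 with a pseudocount of 0.1 CPM (1.45% of all genes), with no expression filter (1.49%) and with WT as reference (2.73%), and 5 with the sibling of the other line (3.29%). It became 0 with a pseudocount of 2 CPM (0.801%, *lft1* at -0.98), a minimum of 10 CPM (0.858%) or a 4-fold threshold (0.306%). The 8 genes in *btl* (7.60%) became 5 with a pseudocount of 2 CPM (5.10%), 1 at 4-fold (0.599%) and 18 in TPM (14.3%). In TPM the median of all genes shifted to -0.55, the median of the 54 genes to -0.75 and the share of all genes to 13.8% lower and 0.417% higher. Relative to that shift, 5 pathway genes were lower and 2 higher. Scaling by library total alone moved the median of the 54 genes in *btl* to -0.41, -0.19 relative to all genes, and the shares to 5.51% lower and 2.09% higher. The calls of *fsta* (-0.44), *tgfbr3* (-0.83) and *bmp3* (-0.55) in *btl* were lost with WT as reference. Those of *ved* (0.77) and *tgfbr3* (-0.93) were lost with the length trend removed. The 5 lower and 3 higher genes in *btl* became 2 lower and 4 higher with WT or the mean of the normal libraries as reference. With the sibling of the other line they became 3 lower (4.54% of all genes) and 6 higher (4.93%). With the mean, 2.97% of all genes were lower and 2.97% higher. More pathway genes were thus past 2-fold higher than past 2-fold lower in *btl* with each of these references, unlike with its own sibling. The median of the 54 genes stayed below 0 all the same. It was -0.16 with WT, -0.25 with the sibling of the other line and -0.22 with the mean of the normal libraries. Over WT the higher genes included *bmp15*, which was 1.51 above WT in *btl*-sibling as well. A pseudocount of 2 CPM left 4 genes lower and 1 higher in *btl*, the calls of *szl*, *ved* and *bmp3* being lost. Scaling by library total left 5 lower and 2 higher, without *ved*. In TPM, without allowance for the shift of all genes, *szl* was at 0.86 and *ved* at 0.43. No called value changed sign. Of 291 alternative values of the named genes in *stl*, 267 lay within the counting interval of the main value, and of 291 in *btl*, 230 did. Depth limits genes such as *lft1* and *szl*, with at most 52 and 45 reads in a library.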
